A study of Mus musculus with 6 samples.

Results

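The keratin genes of the mouse were examined in a list of accessible chromatin intervals from Ezh2-null fibroblasts. Members were all protein-coding genes in the RefSeq gene table (GRCm38, the assembly behind mm10) whose symbol is Krt followed by a number and at most a letter suffix. There were 53 of them among 21887 protein-coding genes, 27 in the type I cluster on chromosome 11 and 26 in the type II cluster on chromosome 15. Keratin-associated proteins (Krtap) and keratinocyte-associated proteins (Krtcap) were not members.

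Open chromatin was mapped by ATAC-seq, where a transposase cuts and tags accessible DNA, in whole cells of 1 mouse embryonic fibroblast line (line A, also called C2). Every group shares the c-myc immortalisation of that line. The groups were Ezh2 -/- cells, Ezh2 -/- cells carrying a retroviral pMSCV-Ezh2 construct, and wild-type cells, with 2 samples each. Ezh2 is the enzyme of the Polycomb complex that methylates histone H3. All values below come from 1 list, that of the Ezh2 -/- cells, which has no value per sample. The other 2 groups were not analysed here, so nothing below compares genotypes, no replicate error could be given and no test over samples was possible. In bulk cells, open chromatin in a few cells and weak opening in many cannot be told apart, and the read depth is unknown.

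Keratins are the intermediate filament proteins of epithelial cells. A type I (acidic) keratin pairs with a type II (basic) keratin, and each layer or appendage of an epithelium uses its own pairs, such as Krt8 with Krt18 in simple epithelia, Krt5 with Krt14 in basal cells and Krt1 with Krt10 in the upper epidermis. Nearly all of the genes sit in a pair of tandem clusters, with Krt18, a type I gene, at the edge of the type II cluster beside Krt8. Fibroblasts build their filaments mainly from vimentin.

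The line's label was set against a short list of marker genes. Of 10 fibroblast genes, 8 had an interval within 1 kb of a gene end, as 47.4% of all protein-coding genes did, among them the collagen gene Col1a1 (total signal 108721) and Vim (85139), and Pdgfra (with an interval in its body) and Thy1 had none there. Total signal is the area under a called region's coverage, in the authors' units. Of 6 epithelial genes, Cldn4 had one (31344), and Cdh1, Epcam, Trp63, Cldn7 and Esrp1 had none at an end, although an interval lay within the body of Trp63.

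Of the 53 keratin genes, 15 had an interval within 1 kb of a gene end (28.3%, exact 95% binomial interval over genes 16.8 to 42.3). Across all protein-coding genes the share was 47.4% (10378 of 21887). In the type I cluster 10 of 27 had one (37.0%), and in the type II cluster 5 of 26 (19.2%). Of the 40 nearest non-keratin genes, 10 on each side of each cluster, 35 did (87.5%). That count was 20 of 20 around the type I cluster and 15 of 20 around the type II cluster. The keratin share was thus below that of all genes and that of the neighbours in this list. With intervals above the median total signal the keratin count was 7 (13.2%), the flanking count 32 of 40 and the count over all protein-coding genes 7158 (32.7%). With intervals that contain their own highest point, the counts were 7 keratin genes, 32 of 40 flanking genes and 9841 of 21887 protein-coding genes. Neighbouring genes share intervals, so they are not independent, and no test over genes was made. Both clusters lie beyond 90 Mb on their chromosomes, where 77.2% of the genes of chromosome 11 and 56.5% of those of chromosome 15 had a gene-end interval. Over the whole chromosomes the shares were 60.5% and 53.9%.

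**Figure D1:**
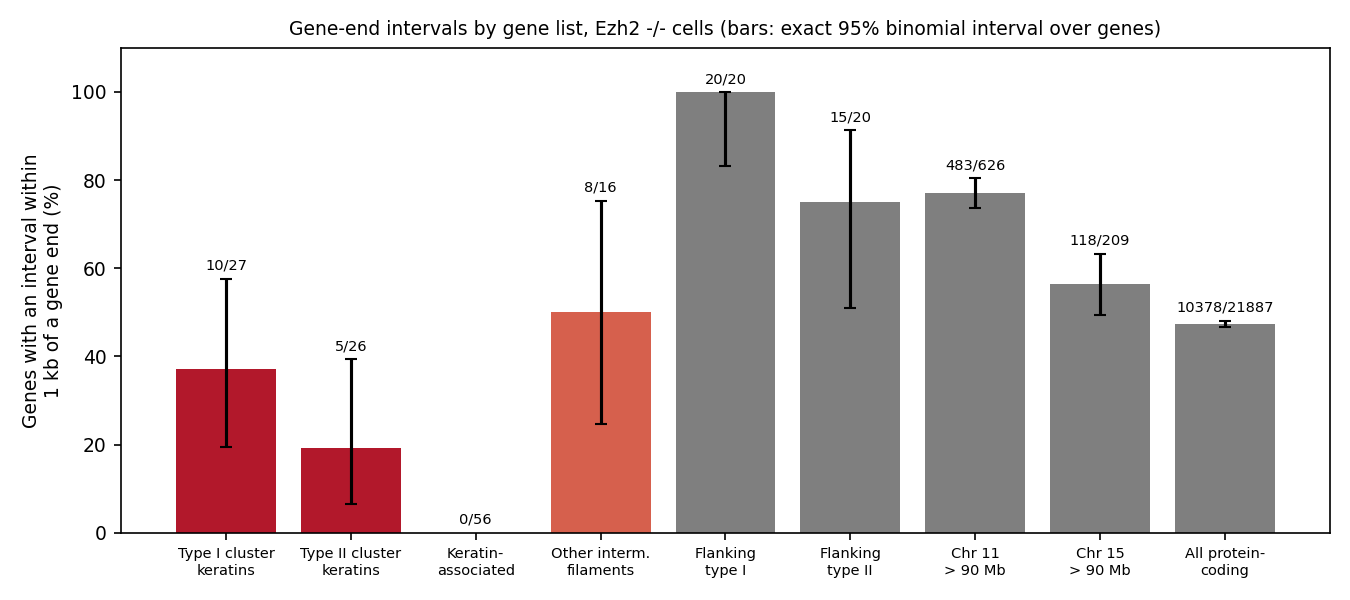
Percent of genes with an accessible interval within 1 kb of either gene end in Ezh2 -/- cells, by gene list, with the count above each bar and exact 95% binomial intervals over genes as error bars (none drawn for the keratin-associated genes, at 0), which treat genes as independent although tandem genes share intervals. Type I cluster keratins stand at 37.0% and type II cluster keratins at 19.2%, against 20 of 20 and 15 of 20 of their flanking genes and 47.4% of all protein-coding genes.

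Counted over gene bodies, 14 keratin genes held an interval, where 52.8% of all protein-coding genes did, and 16 had one over the body with 1 kb added (53.7% of all genes). Those 16 were the 15 with a gene-end interval and Krt78. Keratin genes are short, with a median length of 7070 bp against 17169 bp for all protein-coding genes, so a body count meets fewer bases in them. The median distance from a keratin gene to the nearest interval was 23134 bp, and 0 bp for all protein-coding genes and for the flanking genes.

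Start sites and strands were known for 36 of the 53 members from a RefSeq promoter table. Of these 36, Krt7, Krt8, Krt12 and Krt13 had an interval within 1 kb of a listed start (11.1%), where 46.9% of 17492 protein-coding genes with a listed start did. Another 6 members (16.7%), namely Krt10, Krt23, Krt25, Krt27, Krt28 and Krt42, had one within 1 kb of the 3′ end, where 13.5% of those genes did, and none of these 6 had one at a start. Over all those genes, 470 of 17492 (2.69%) had an interval at the 3′ end alone. So among keratins with a known strand 6 had an interval at the 3′ end and 4 at a start. All 6 were among the 20 type I cluster members, of which 2 had one at a start. Of the 16 type II cluster members, 0 had one at the 3′ end and 2 at a start. Among flanking genes with a listed start, 86.7% had one at a start, 36.7% at the 3′ end and 0 at the 3′ end alone. More 3′ ends than starts were thus counted in the type I cluster only, while over all genes starts were the more frequent place. The difference was not tested. At Krt42 the interval was that of the upper end of Krt17, 462 bp outside Krt42. At Krt28 and Krt23 it lay 180 and 576 bp outside the gene. Intervals at the 3′ ends of Krt23, Krt25, Krt27 and Krt42 lacked their own highest point, as did those at Krt7, Krt12 and Krt13. Krt17, Krt80, Krt81, Krt88 and Krt222 had a gene-end interval but no listed strand, so they are left out.

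The promoters of the 4 keratin genes with an interval within 1 kb of a listed start (over it at Krt7, Krt12 and Krt13, beside it at Krt8) are given here with those of Krt18, Krt5 and Krt14, textbook keratins without one. Each runs 5′ to 3′ from 250 bases before the listed start to 50 bases after it (RefSeq, GRCm38). The listed starts of Krt14 (100206030) and Krt12 (99422259) lie inside their gene entries, which reach 100207510 and 99422593. Both of these windows therefore fall within the gene entry, and the Krt14 window is not at its 5′ end. Capitals mark matches, on either strand, to the AP-1 motif TGANTCA, the TATA box TATAAA and the GC box GGGCGG.
Krt7, chr15:101412153-101412452, plus strand: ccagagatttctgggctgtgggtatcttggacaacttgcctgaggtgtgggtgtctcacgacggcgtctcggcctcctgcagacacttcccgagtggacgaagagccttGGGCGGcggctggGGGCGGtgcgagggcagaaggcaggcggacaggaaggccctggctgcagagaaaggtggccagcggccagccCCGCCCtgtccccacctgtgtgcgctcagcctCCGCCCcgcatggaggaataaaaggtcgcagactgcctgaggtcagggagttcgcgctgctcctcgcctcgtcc
Krt8, chr15:102004293-102004592, minus strand: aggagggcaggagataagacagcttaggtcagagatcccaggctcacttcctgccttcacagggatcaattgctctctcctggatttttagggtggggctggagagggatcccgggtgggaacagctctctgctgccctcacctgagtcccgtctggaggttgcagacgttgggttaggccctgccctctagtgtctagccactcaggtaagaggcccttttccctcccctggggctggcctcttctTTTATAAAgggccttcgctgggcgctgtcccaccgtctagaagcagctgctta
Krt12, chr11:99422210-99422509, minus strand: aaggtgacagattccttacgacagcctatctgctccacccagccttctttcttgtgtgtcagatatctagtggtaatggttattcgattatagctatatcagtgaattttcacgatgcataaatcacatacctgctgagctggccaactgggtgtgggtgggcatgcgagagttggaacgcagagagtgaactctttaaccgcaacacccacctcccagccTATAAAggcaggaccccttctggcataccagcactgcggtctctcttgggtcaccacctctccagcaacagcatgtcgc
Krt13, chr11:100121517-100121816, minus strand, the upper of its listed starts: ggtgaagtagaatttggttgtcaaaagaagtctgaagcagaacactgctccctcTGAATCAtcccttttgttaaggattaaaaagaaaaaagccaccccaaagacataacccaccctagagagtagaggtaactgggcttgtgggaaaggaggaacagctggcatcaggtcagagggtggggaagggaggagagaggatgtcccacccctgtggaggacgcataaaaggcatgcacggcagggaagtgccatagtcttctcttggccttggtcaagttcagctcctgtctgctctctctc
Krt18, chr15:102027966-102028265, plus strand: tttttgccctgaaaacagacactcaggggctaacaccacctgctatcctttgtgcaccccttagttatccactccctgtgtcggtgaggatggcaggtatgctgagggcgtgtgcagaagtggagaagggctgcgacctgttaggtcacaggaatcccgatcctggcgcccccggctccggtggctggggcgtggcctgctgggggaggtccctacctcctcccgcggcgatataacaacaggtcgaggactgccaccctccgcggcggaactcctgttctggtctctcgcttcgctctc
Krt5, chr15:101712856-101713155, minus strand: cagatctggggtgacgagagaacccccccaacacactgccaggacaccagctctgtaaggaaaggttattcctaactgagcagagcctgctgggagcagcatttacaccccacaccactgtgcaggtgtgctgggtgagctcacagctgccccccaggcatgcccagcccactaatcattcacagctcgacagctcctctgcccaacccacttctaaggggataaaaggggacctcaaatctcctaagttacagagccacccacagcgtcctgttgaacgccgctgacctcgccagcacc
Krt14, chr11:100205981-100206280, minus strand: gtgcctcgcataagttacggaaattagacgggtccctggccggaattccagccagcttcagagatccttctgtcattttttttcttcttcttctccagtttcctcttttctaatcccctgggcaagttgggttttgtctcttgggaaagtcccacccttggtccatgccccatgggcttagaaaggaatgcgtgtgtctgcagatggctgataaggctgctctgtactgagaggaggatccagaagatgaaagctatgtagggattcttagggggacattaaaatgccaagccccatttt
The Krt7 window holds 4 GC boxes, 21 CG dinucleotides and 66.3% GC, the highest CG count and GC share of the 37 keratin windows. Krt12 has a TATA match from base 222 of the window, 29 bases before the listed start. In Krt8 a pair of TATA matches on opposite strands overlap, from bases 248 and 250. They begin 3 and 1 bases before the listed start and so run over it. The shown Krt13 window holds an AP-1 match, and its other listed start, at 100120577, has 2 more. No match to the 3 motifs was found in the shown windows of Krt18, Krt5 and Krt14.

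Over all 37 keratin windows the median was 5 CG dinucleotides and 48.7% GC, against 13 and 56.3% over 21263 promoters of protein-coding genes. A TATA box match stood in 19 of the 37 (51.4%; 12.6% of all promoters), a GC box match in 2 (5.41%; 46.2% of all) and an AP-1 match in 2 (5.41%; 6.99% of all). Matches were counted at any position of the window. Both AP-1 windows belong to Krt13. The keratin windows thus had fewer CG dinucleotides and GC boxes, and more TATA matches, than promoters at large. Over all promoters, those inside an interval had a median of 23 CG dinucleotides and those outside 5. Among keratin windows the medians were 6 for the 5 windows inside an interval (including both starts of Krt13) and 4.5 for the 32 outside. Krt18, with 17 CG dinucleotides and 61.3% GC, was outside.

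**Figure D2:**
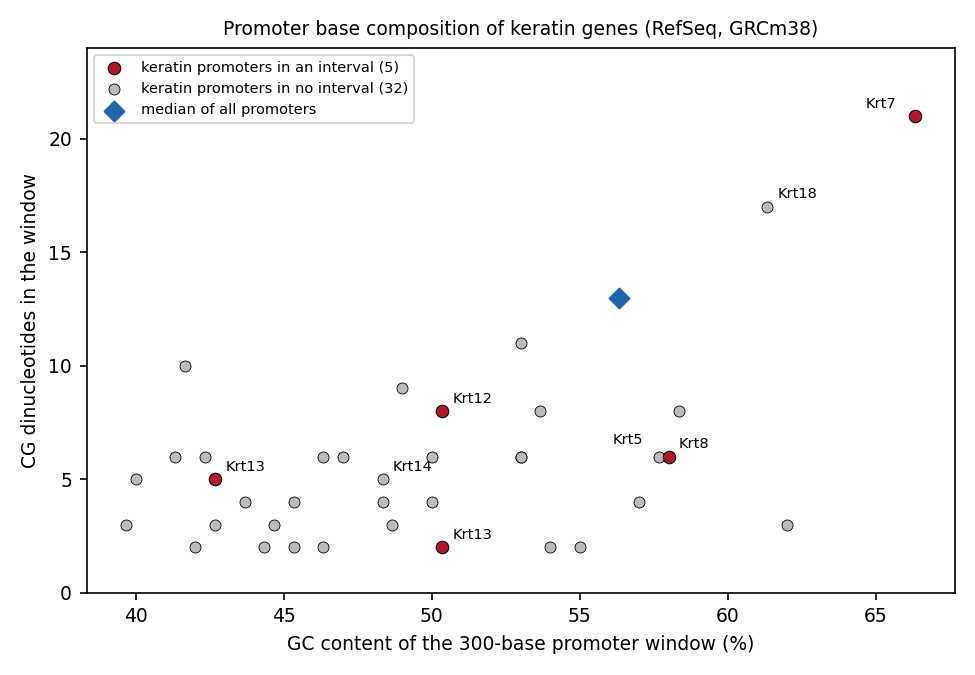
CG dinucleotides in the 300-base RefSeq promoter window against its GC content in percent, for 37 windows of 36 keratin genes, in red where an interval of the Ezh2 -/- list overlaps the window and grey where none does, with the median of all promoters as a diamond. Krt7 and Krt18 alone lie above the median CG count of all promoters, 13, and of these Krt7 is in an interval and Krt18 is not.

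The type I cluster ran from Krt222 to Krt42 (chromosome 11, 99232761 to 100269951, mm10), a length of 1037 kb. Counted by their midpoints, it held 17.4 intervals per Mb, which covered 3.69% of its bases. The 500 kb on either side held 84.0 per Mb and 42.0% covered. Along chromosome 11 beyond 90 Mb, the cluster included, there were 53.9 per Mb and 20.2% covered, and the whole of chromosome 11 had 2439 intervals and 6.79% covered. The type II cluster ran from Krt80 to Krt18 (chromosome 15, 101348315 to 102032026), a length of 684 kb, with 13.2 intervals per Mb and 4.91% covered. Its flanks had 52.0 per Mb and 16.1% covered, chromosome 15 beyond 90 Mb had 17.5 per Mb and 4.99% covered, and the whole of chromosome 15 had 8.10 per Mb and 2.23% covered. Both clusters were therefore sparser than their own flanks and below the density of the distal part of their chromosome. Against the whole chromosome, the type I cluster was lower in both measures and the type II cluster higher in both. The covered share of the type II cluster was close to that of distal chromosome 15.

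**Figure D3:**
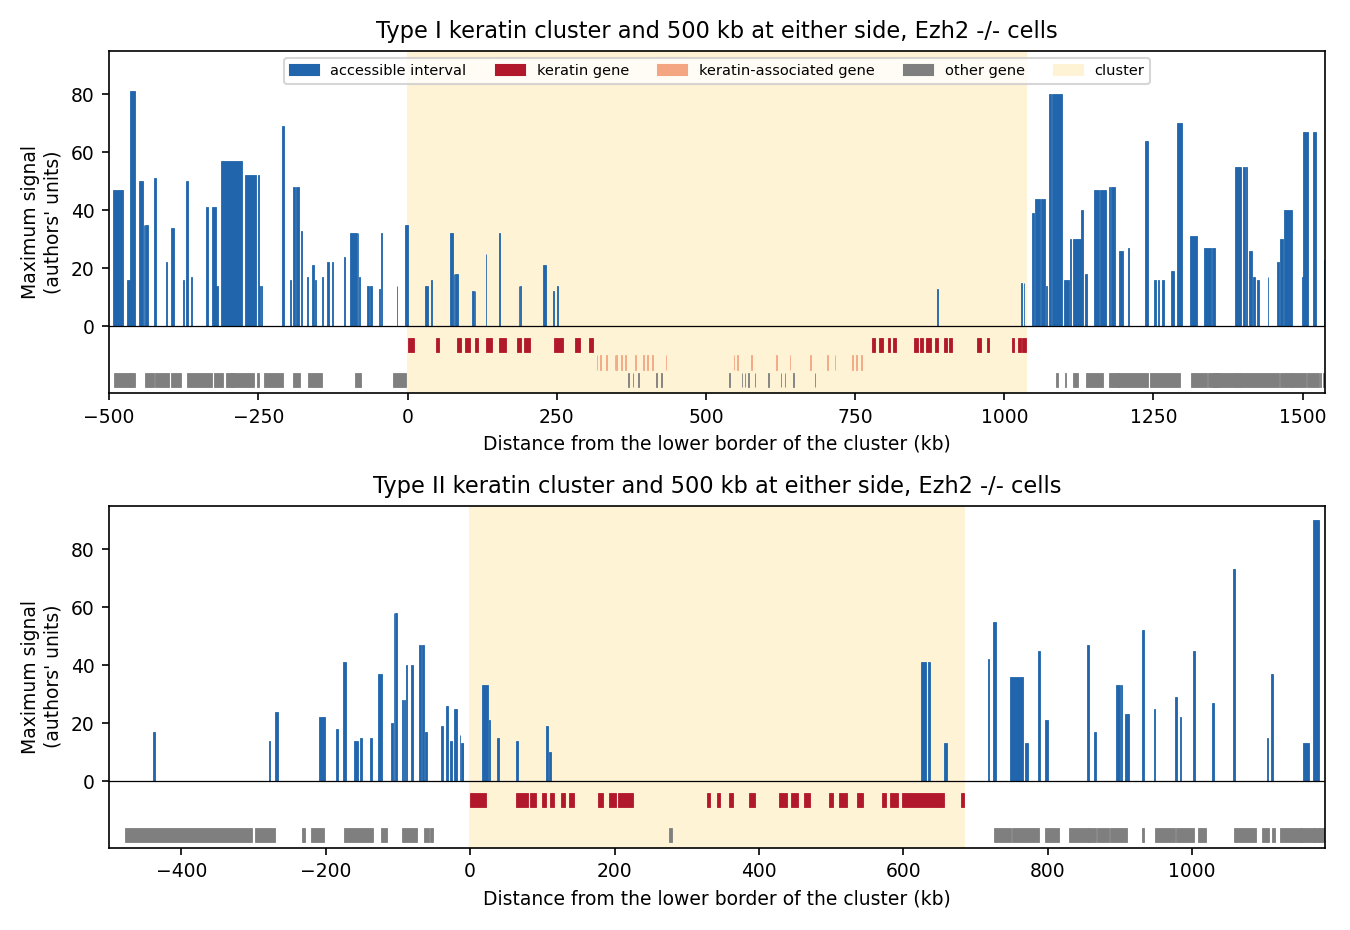
Map of both clusters (shaded) with 500 kb at either side in Ezh2 -/- cells: x is the distance in kb from the lower border, bar height is the maximum signal of the called region in the authors' units, and rows below 0 mark keratin, keratin-associated and other protein-coding genes. Intervals are denser outside the shading than inside it, although the outer part of the lower type II flank holds few. The longest stretches without a listed interval, 635 kb in the type I and 513 kb in the type II cluster, lie inside it.

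Each cluster had a long stretch with no listed interval. In the type I cluster it was 634996 bp, from 99484362 to 100119357, and held 9 keratin genes (Krt39 to Krt36), 23 Krtap genes and 15 other protein-coding genes. It ranked 24 of 2438 interval-free stretches on chromosome 11 by length, and of the longer ones 2 lay beyond 90 Mb. In the type II cluster the stretch was 512919 bp, from 101459814 to 101972732, and held 18 of the 26 keratin genes, Krt86 to Krt79, with Gm5414. It ranked 37 of 840 on chromosome 15, with 4 of the longer ones beyond 90 Mb. The median stretch was 6996 bp on chromosome 11 and 23406 bp on chromosome 15. A further 138658 bp of the type I cluster had no listed interval across Krt15, Krt19, Krt9, Krt14 and Krt16. Stretches without a listed interval were not free of called signal. The highest point of the Krt13 called region, 100112679 to 100117990, lay inside the longest type I stretch. That of the interval in the Krt23 body, 99483841 to 99485109, reached into the same stretch. The highest point of the Krt17 region, 100258297 to 100258306, lay in the stretch of 138658 bp.

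**Figure D4:**
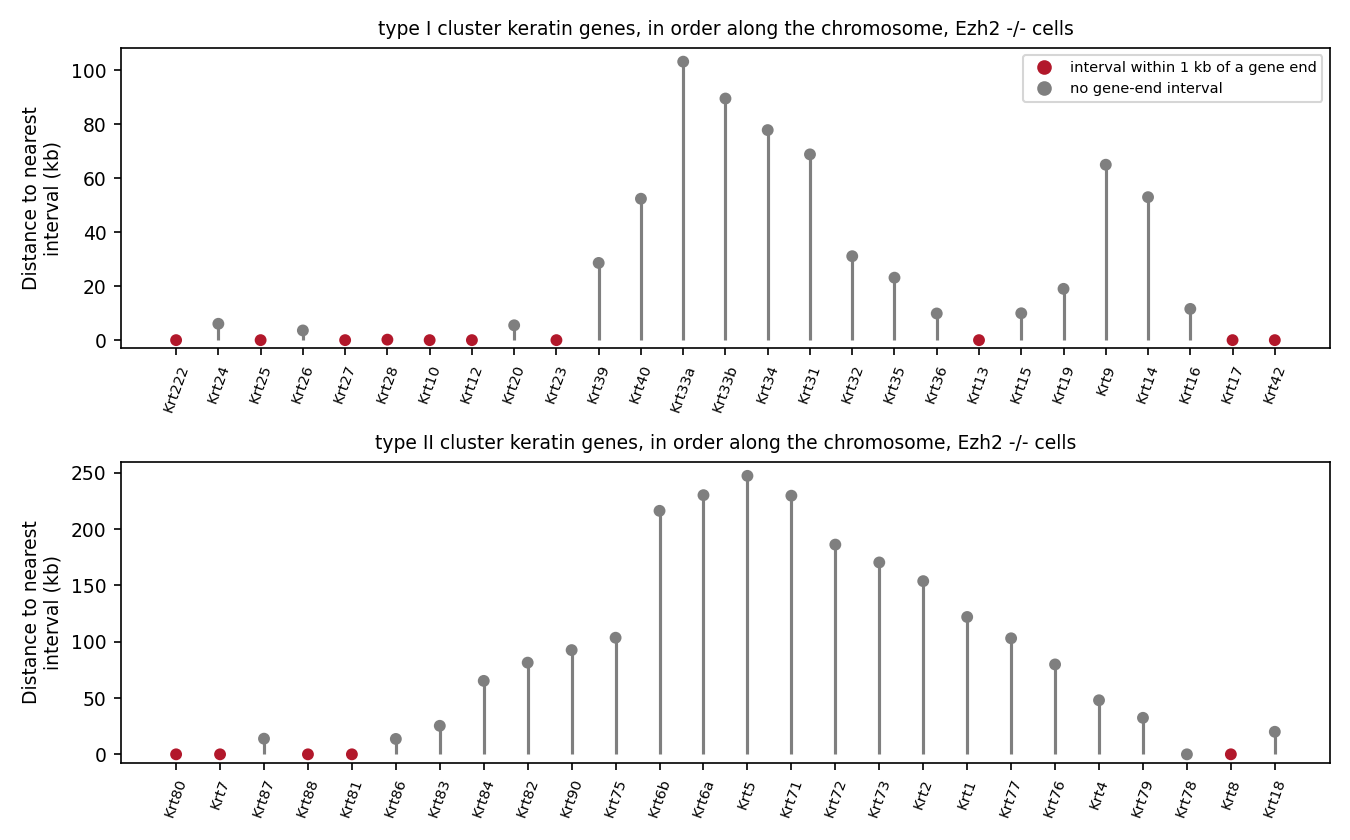
Distance in kb from each keratin gene to the nearest accessible interval in Ezh2 -/- cells, with genes in order along chromosome 11 (upper) and chromosome 15 (lower), red where an interval lies within 1 kb of a gene end. Distances peak at Krt33a (103146 bp) in the type I cluster and at Krt5 (247256 bp) in the type II cluster. At the upper ends Krt42 has an interval and Krt18 is 20011 bp from one.

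The type I cluster is divided by its Krtap genes, which encode matrix proteins of the hair shaft. The keratin block before them, Krt222 to Krt40, had a gene-end interval at 7 of 12 genes, where 47.4% of all genes and 77.2% of those on chromosome 11 beyond 90 Mb did, and 10.6% of its 310 kb covered. The block between, 468 kb, had none, and its Krtap genes lay at a median of 142868 bp from the nearest interval. The block after them, Krt33a to Krt42, had an interval at the ends of 3 of 15 genes and 2.01% of its 259 kb covered. Of all 56 Krtap genes in the table, 0 had a gene-end interval, and 23 of them lie in the 634996 bp stretch with none. The low density of the type I cluster was thus uneven, with the first block at 48.3 intervals per Mb and the last at 11.6.

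The clusters held 28 intervals, from 23 called regions. Of these 28, 14 were at gene ends, 5 inside gene bodies away from the ends, and 9 between genes. The type I cluster had 19 and the type II cluster 9. Intervals between genes stood 1859 to 15613 bp from the nearest keratin gene. In the type I cluster 7 of them lay between Krt222 and Krt23, and in the type II cluster both lay between Krt80 and Krt7. Those in the type I cluster began at 99262410, 99272094, 99303491, 99307369, 99309813, 99341548 and 99459626, and those in the type II cluster at 101374158 and 101385775. The intervals at 99309813 and 99341548 were pieces of the called regions of Krt25 and Krt27. The highest were the pair at 99303491 and 99307369, 1 called region with a maximum of 32, and the type II pair had maxima of 21 and 15. The widest between genes were 5225 bp at 99262410 (total signal 43971, maximum 14), between Krt222 and Krt24, and 4677 bp at 99459626 (49634, 21), between Krt20 and Krt23.

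The signal of these regions was low in height. Beside its total, each called region has a maximum, the height of its coverage, also in the authors' units. The median maximum of the 14 called regions at keratin gene ends was 14.5, against 36.5 for the 36 at flanking gene ends and 36 for the 9185 at ends of any protein-coding gene. Their median total was 23649, against 55188 at flanking gene ends and 36084 at all gene ends. Of the 23 regions of both clusters, 17 had a maximum below the list's median of 27 and 12 were below its lower quartile of 18. By total signal, Krt88 (15934), Krt8 (16652) and Krt7 (17178) stood at percentiles 3.61, 7.42 and 10.2 of all called regions, near the bottom of the list. Other totals were high, with Krt13, Krt17 (its region shared with Krt42) and Krt80 at percentiles 79.6, 78.7 and 86.7. The highest points of the Krt13 and Krt17 regions lay outside their listed intervals. Of the 23 regions, 12 were below the list's median total of 29070, and the type I cluster's median total was 31936, against 17178 for the type II cluster. These are the authors' own values per region and carry no error.

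**Figure D5:**
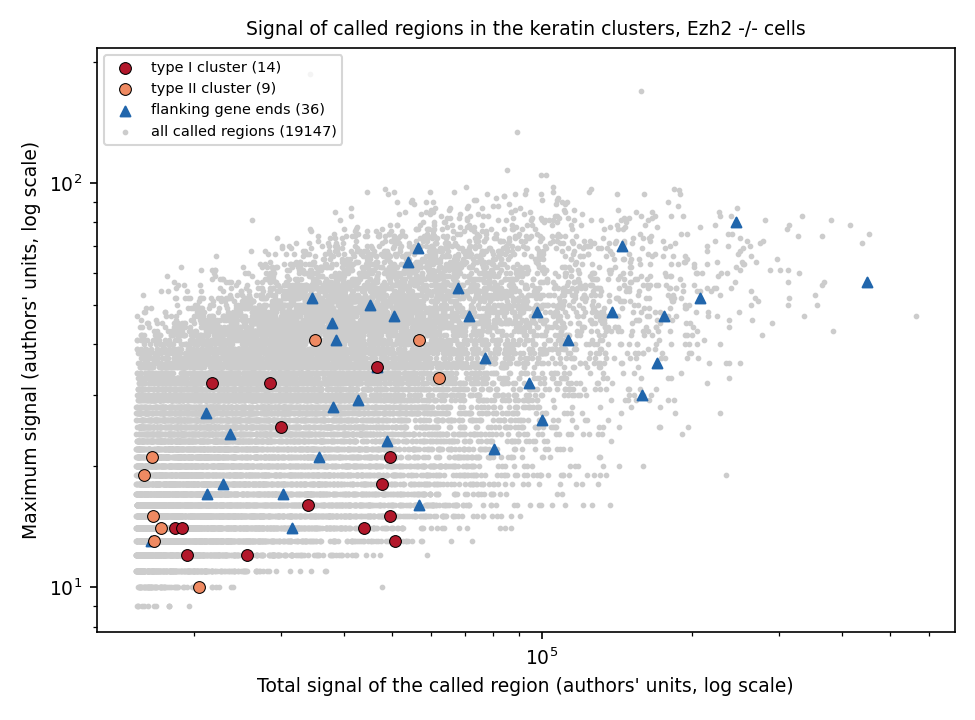
Maximum against total signal of called regions in Ezh2 -/- cells, both in the authors' units on log axes, for the 14 regions of the type I and 9 of the type II cluster, 36 regions at flanking gene ends (triangles) and all 19147 regions on chromosomes (grey). Most cluster regions lie low in height: 17 of 23 are below the list's median maximum of 27.

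The counts by role that follow are to be read beside the 47.4% of all protein-coding genes with a gene-end interval. Simple epithelial keratins had an interval at 3 of 6 genes, about that share. At Krt8, among the first keratins made in the embryo, an interval of 3849 bp began 15 bp before the start site and lay wholly outside the gene (chromosome 15, 102004357 to 102008205). Its total signal was 16652 and its maximum 13, at percentiles 7.42 and 4.27 of all called regions. Krt18, its partner, was 20011 bp from the nearest interval. At Krt7, of glandular and duct epithelia, an interval of 2858 bp covered the start (101412085 to 101414942, total 17178, maximum 14). Its highest point lay just below the interval, at 101412013 to 101412081. Krt23 had intervals of 510 bp beside its 3′ end (total 19430, maximum 12) and 1646 bp in the body (18941, 14). Krt19 was 19000 bp and Krt20 5496 bp from the nearest interval.

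Basal and upper epidermal keratins were mostly far from any interval. The distance was 247256 bp for Krt5, 52959 bp for Krt14 and 9949 bp for Krt15, the 3 basal genes. Krt5 thus lay farthest of the 53 members from an interval. Among the suprabasal genes Krt10 held an interval of 1517 bp inside its 3′ part (99385845 to 99387361, total 21750, maximum 32), 2003 bp from its listed start. Its maximum was at percentile 61.5 of all called regions, among the higher ones of the clusters. Krt1, the partner of Krt10, was 121947 bp from an interval, Krt2 153777 bp, Krt77 103027 bp and Krt9 64971 bp. Krt5, Krt1, Krt2 and Krt77 lay in the 512919 bp type II stretch with no listed interval. Genes of other roles in that stretch were also far, such as Krt6a (230115 bp) and Krt71 (229636 bp). Krt14, Krt15 and Krt9 lay in the type I stretch of 138658 bp.

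Of the stress and companion-layer keratins, which are induced in wounded skin or line the hair follicle, Krt17 had an interval and Krt6a, Krt6b, Krt16 and Krt75 had none. The Krt17 interval, 100260469 to 100262420, overlapped 561 bp of the gene's upper end and reached within 462 bp of Krt42, so the same interval counts for both genes. Its called region (total 49676, maximum 15) had its highest point inside Krt17, at 100258297 to 100258306, outside the listed interval. A further piece of that region, 796 bp, lay in the body of Krt42. Krt6a and Krt6b were 230115 and 216210 bp from the nearest interval and Krt16 11567 bp.

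Of 6 mucosal and corneal keratins, Krt12 and Krt13 had a gene-end interval and Krt78 intervals in its body. At Krt12, the keratin of the corneal epithelium, intervals of 1242 bp over the start and 771 bp in the body belonged to 1 called region (total 18351, maximum 14). At Krt13, of mucosal epithelia such as the oesophagus, an interval of 2453 bp covered both starts (100119358 to 100121810, total 50780, maximum 13). The total of its called region was at percentile 79.6 of all called regions but the maximum at percentile 4.27, a wide and low region. The highest point of that region, 100112679 to 100117990, lay outside the listed interval, across the 3′ end of the gene. These values therefore do not describe the starts alone. Krt4, the partner of Krt13, was 47998 bp from an interval. Krt78 held intervals of 6634 bp (total 56678) and 3253 bp (total 35134), both with a maximum of 41, the highest of either cluster, 18446 and 27901 bp upstream of its listed start, inside a gene entry that reaches almost to Krt8. Krt24 and Krt76 had none.

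Of 7 genes of the inner root sheath, the sleeve around the growing hair, Krt25, Krt27 and Krt28 in the first type I block had a gene-end interval, and Krt26 between them, Krt71, Krt72 and Krt73 did not. The Krt25 interval was 5610 bp (total 47812, maximum 18), the Krt27 interval 1509 bp (25548, 12) and the Krt28 interval 850 bp, 180 bp beside the gene (29953, 25). Of 15 hair-shaft keratins, Krt81 alone had one, 1701 bp wide (total 20542, maximum 10), and that maximum was at percentile 0.0627 of all called regions. The other 14 were 9871 to 103146 bp from the nearest interval, with Krt33a the farthest.

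Among the remaining members, Krt80 had the strongest region of either cluster by total signal. Its interval of 8449 bp (101365137 to 101373585, total 62327, maximum 33) covered the upper end of the gene and 5026 bp of its body. Krt88 had an interval of 3195 bp at its upper end (total 15934, maximum 19). Krt79 and Krt90 were 32409 and 92543 bp from an interval. At the lower border of the type I cluster, the interval at Krt222 (99229261 to 99233632, total 46772, maximum 35) also covered an end of Smarce1, a subunit gene of the SWI/SNF chromatin remodeller, whose body ends 1744 bp from Krt222. Its highest point lay within Smarce1, at 99230385 to 99230913. Without intervals that also lie at the end of a non-keratin gene, 14 of 53 keratin genes had one.

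Outside Krt42 the nearest began 8708 bp away (total 40487, maximum 39), outside Krt80 it was 9525 bp away (16923, 13), and outside Krt18 33091 bp away (35657, 42). Of the 5 nearest genes on each side, all 10 around the type I cluster had a gene-end interval: Smarce1, Ccr7 (total 94376), Tns4 (30306), Igfbp4 (97838) and Top2a (56392) below, and Eif1 (245342), Gast (56619), Hap1 (159079), Jup (175771) and P3h4 (138365) above. Eif1 encodes a translation initiation factor and Jup the junction protein plakoglobin. The Igfbp4 interval lacked the highest point of its called region. Around the type II cluster 8 of 10 did, namely Atg101 (71487), Nr4a1 (38041), Grasp (76957) and Acvr1b (38639) below and Eif4b (170706, an interval shared with Tns2), Tns2, Spryd3 (37959) and Igfbp6 (35709) above. Smim41, nearest below Krt80, and Soat2 had none. Of the outermost keratin genes, Krt222, Krt42 and Krt80 carried an interval themselves and Krt18 did not. Inside the clusters the 16 protein-coding genes that are neither keratin nor Krtap by symbol had no interval, where 47.4% of all protein-coding genes had one at a gene end. These were 15 in type I (2300003K06Rik and 14 with Gm symbols) and Gm5414 in type II. All 15 lay among Krtap genes in the 634996 bp stretch with no listed interval, and they were set apart from Krtap by symbol only.

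Some listed intervals lack the highest point of their own called region. That held for 14 of 19 intervals of the type I cluster (73.7%), against 38.1% in its flanks, 43.2% on chromosome 11 beyond 90 Mb and 20.5% of the whole list. In the type II cluster it was 1 of 9. Of the 15 keratin genes, those with an interval that holds its highest point were Krt8, Krt10, Krt28, Krt80, Krt81, Krt88 and Krt222. The 7 above the median total signal were Krt13, Krt17, Krt25, Krt28, Krt42, Krt80 and Krt222. Krt28, Krt80 and Krt222 were in both sets. Counted over the whole span of each called region, 15 keratin genes had one at an end, beside 47.6% of all protein-coding genes. The sources used here do not say why these pieces are missing, and their part in the counts was not tested.

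Lists of other genes, chosen by function, were set beside the keratins. Of 16 other intermediate filament genes, 8 had a gene-end interval, led by the lamin gene Lmnb2 (total 126777, maximum 60), the glial Gfap (107725, 38), Vim (85139, 50) and the lens gene Bfsp1 (79181, 77), while Bfsp2, Des and Ina had none at an end. Of 11 genes of plakins and desmosome plaque proteins, which anchor keratin filaments, 7 had one, led by Jup, Evpl (171994), Plec (63395) and Dst (56793), while Dsp, Pkp1 and Pkp2 had none. Jup, Evpl and Gfap lie on distal chromosome 11, where 77.2% of genes had a gene-end interval. The Gfap interval with this total began at 102898199, near the limit of the 1 kb window, as the gene ends at 102897200. The distance from Gfap to its nearest interval was 0 bp. Of 15 genes in an epithelial list, made of regulators and other epithelial genes, 4 had a gene-end interval (26.7%). These were Klf4 (54095), Elf3 (42938), Grhl1 (27022) and Klf5 (25529), and Cdh1, Ehf and Esrp1 were the first in alphabetical order without. The intervals taken for Plec and Elf3 did not hold the highest point of their called regions. Cdh1, Esrp1 and Trp63 were also in the marker check above, so these lists overlap. The share of all protein-coding genes was 47.4%. At gene ends the plakin list (63.6%) stood above it, the filament genes near it and the epithelial list under it, none of this tested. Over gene bodies 14 of 53 keratin genes (26.4%) held an interval, against 7 of 15 genes of the epithelial list (46.7%) and 52.8% of all protein-coding genes.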

How the data were processed

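ATAC-seq intervals of the Ezh2 -/- group were used as deposited. Per the submitters' processing notes, the tools were Bowtie2 2.2.9, deepTools and SEACR, with the build mm10. Thresholds, duplicate handling, the transposase shift and the way both samples were combined: not given in the sources used here. Each row holds the total (an area score) and the maximum signal of its called region, as deposited by the authors with no stated normalization, and depth is unknown. Rows with the same values and highest point were taken as 1 called region, which gave 19215 from 21835 intervals.

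Gene positions came from RefSeq on GRCm38. A gene had a gene-end interval where at least 1 bp lay within 1000 bp of either end. Flanking genes were the 10 nearest on each side. Members, role groups and lists were chosen with earlier results of these data known. The genes named were every keratin gene with an interval, 10 textbook keratins, the 5 nearest flanking genes on each side, other genes inside a cluster, and, for each related list, at most 4 members ranked by total signal plus 3 lacking an interval, taken alphabetically. Other keratins were named to complete their role group, after their values were seen. Every interval inside a cluster was listed. Krt74 is a pseudogene in the table, and Krt85 was not analysed here. The alternatives with start sites, called-region spans and without shared intervals, and the distal parts of both chromosomes as backgrounds, were chosen after seeing the data. No test was made, since there is 1 list with no value per replicate, and exact binomial intervals cover counting over genes only. A slow direct search gave the same answer for all 400 genes checked. Python 3.11.15, numpy 2.4.6, pandas 2.3.3, scipy 1.17.1 and matplotlib 3.10.9 were used.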

Additional observations from a re-analysis of the deposited data

How the results depend on the processing

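No paired analysis was possible because the list carries no value per sample. For the same reason no replicate could be left out. The keratin share stayed below that of all protein-coding genes under all 7 alternatives computed for both. Windows of 500 and 2500 bp, an overlap of at least 200 bp, the span of called regions and the removal of shared intervals left 13 to 15 keratin genes. A count, density or coverage was called moved past a ratio of 1.5, and 23 of 63 values moved.

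Above the median total signal, keratin genes with a gene-end interval numbered 7, intervals between genes 4, and densities were 8.68 per Mb in the type I cluster (2.37% covered), 4.39 per Mb in the type II cluster (2.68% covered) and 32 per Mb in the type II flanks. Above the upper quartile the counts were 6 keratin genes (Krt222, Krt25, Krt13, Krt17, Krt42 and Krt80), 4289 of all genes and 2 intervals between genes. The clusters then held 5.78 per Mb (1.61% covered) in type I and 2.93 per Mb (2.21% covered) in type II, and the flanks 51 per Mb in type I and 18 per Mb (7.68% covered) in type II. With intervals that contain their maximum there were 7 keratin genes and 4 intervals between genes, and densities were 3.86 per Mb (0.840% covered) in the type I cluster and 52 per Mb in its flanks. At listed start sites 4 of 36 keratin genes had an interval, which by construction leaves out the 3′ ends. The first 3 settings take out intervals by construction. With the 5 or 20 nearest genes on each side, or all within 500 kb, the flanking share stayed inside the binomial interval of the 87.5% (73.2 to 95.8). Depth is unknown, so how far the authors' threshold hides weaker sites could not be measured.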
